A study of Homo sapiens with 12 samples.

Results

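Baseline 2'-O-methylation was described in 6 of the 12 libraries of a RiboMeth-seq series, namely the 3 libraries labelled WT and the 3 labelled siNT. They were taken by their labels alone, and every one of the 141 sites listed in the deposited overview was scored in each of them. Both groups are Flp-In T-Rex HEK293 cells of wild-type genotype, a human embryonic kidney cell line that carries an integration site for inducible transgenes. WT cells have no transfection named in the labels, and siNT cells received non-target siRNA, the transfection control for a knockdown of the helicase DHX15. The remaining 6 libraries, GPATCH4 knockout cells and DHX15 knockdown cells, enter only as extra samples in alternative fits. The tables hold rRNA, snRNA and 2 small nucleolar RNAs, so markers of the cell line could not be looked at.

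A 2'-O-methyl group on the ribose is placed on most sites of human rRNA and snRNA by fibrillarin, the methyltransferase of box C/D ribonucleoproteins, at nucleotides chosen by base pairing with a guide RNA. Small nucleolar RNAs guide rRNA and U6, while small Cajal body RNAs guide the other spliceosomal snRNAs, and the first nucleotides after the cap are methylated by cap methyltransferases without a guide. In the ribosome the sites gather in the functional core, around the decoding and peptidyl transferase centres.

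Partial alkaline hydrolysis breaks RNA less often 3' of a 2'-O-methylated ribose, so that few sequenced fragments end there. The authors' RMS score is the missing share of read ends at a position relative to 6 neighbours on each side, from 0 (no depletion) to 1 (no read end). Being a ratio of counts, it is no counted share of molecules. A mean score of 0.9 or more is called full here, 0.5 to below 0.9 partial, and below 0.5 low, which are names for ranges of the score.

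The sites lie in stretches with known roles, printed from the sequences in the deposited tables, 5' to 3', with every listed site in capitals. The first set shows the functional centres that the results return to. In U2 the sites surround the GUAGUA that pairs with the branch site and U5 carries Gm37, Um41 and Cm45 in the loop that holds the exons. The 28S stretch is the A loop of the peptidyl transferase centre.
28S positions 4491 to 4505: guuGgauUGuucacc
U2 positions 1 to 65: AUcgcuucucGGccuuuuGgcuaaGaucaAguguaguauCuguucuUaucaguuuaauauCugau
U5 positions 33 to 49: uuucGccuUuuaCuaaa

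The second set shows the sites that scored low in both control groups and U4-Cm8, which was low in siNT only. These are listed as sites and yet had a mean score below 0.5 in at least 1 control group. Their means over the 6 libraries ran from 0.0305 at 18S-Um354 to 0.386 at U4-Cm8. Positions without capitals near them are ordinary neighbours.
18S positions 344 to 364 (Um354): uucgaacgucUgcccuaucaa
28S positions 1870 to 1890 (Cm1880): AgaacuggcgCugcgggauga
28S positions 2033 to 2053 (Um2043): gcccugaaaaUggauggcgcu
18S positions 1430 to 1450 (Cm1440): cgucccccaaCuUcuuaGagg
5.8S positions 4 to 24 (Um14): cucuuagcggUggaucacucg
28S positions 1313 to 1333 (Am1323): cccGucuugaAacAcggacca
18S positions 426 to 446 (Gm436): auUccggagaGggagccugag
U4 positions 1 to 18 (Cm8): AGcuuugCgcaguggcag

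The third set shows the 2 sites at which siNT and WT differed past the threshold.
18S positions 566 to 586 (Am576): uccacuuuaaAuccuuuaacg
28S positions 4613 to 4633 (Gm4623): cgcagGuUcaGacauuuggug

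The groups differed in depth. WT libraries 1 to 3 held 16314082, 8677305 and 13288018 read ends, and siNT libraries 1 to 3 held 1796931, 1736931 and 1705278. Around an rRNA site the median depth was 1682 to 3056 read ends per neighbouring position in the WT libraries and 336 to 354 in the siNT libraries, and around an snRNA site 147 to 252 and 26.1 to 32.6. A score of exactly 1 occurred at 1 site in each WT library and at 7, 11 and 5 sites in siNT libraries 1 to 3. Depth and the named transfection go with the group, and the labels do not say whether the 2 groups of libraries were made together. The parts of depth, transfection and library making in any difference between siNT and WT cannot be told apart. WT 2 and siNT 2 share a library index sequence, as do WT 3 and siNT 3. The titles call the replicates biological, and the p-values measure only the spread between them.

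The median site mean of the score was 0.888 in WT and 0.911 in siNT. Over the 6 libraries, 68 of the 141 sites had a mean score of 0.9 or more, 65 were partial and 8 were low. In 32 sites the mean reached 0.95. No mean over the 6 libraries lay between 0.4 and 0.5, although 28S-Cm2860 and 28S-Gm2875 did by their WT means. In each library taken by itself, 41 sites scored 0.9 or more in all 6, 29 sites lay in the partial range in all 6, and 6 sites lay below 0.5 in all 6. The other 65 sites had scores in more than 1 class.

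The highest means belonged to sites of several kinds. The first of them, U2-Am1, is cap-adjacent, carries another kind of score, described below, and stands first by value only. U2-Am1, the first transcribed nucleotide of the branch-site snRNA, scored 0.994, 0.989 and 0.991 in WT libraries 1 to 3 and 1, 1 and 0.965 in siNT libraries 1 to 3. 28S-Am3760 scored 0.986, 0.976 and 0.977 in WT and 0.991, 0.991 and 0.977 in siNT. 28S-Gm4228, next to the also full 28S-Um4227, scored 0.980, 0.989 and 0.977 in WT and 0.99, 0.970 and 0.99 in siNT. Of 18S rRNA, Am1383 and Am27 came next with a mean of 0.977 each over the 6 libraries. At these 5 sites the values of the 2 groups overlapped, except at 18S-Am27, where the siNT libraries (1.000, 0.985 and 0.988) all lay above the WT libraries (0.971, 0.949 and 0.970).

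The 7911 unlisted positions of all 10 RNAs in the tables, U3 and U8 included, gave the background of the score, without the 6 positions at either end of each RNA, which lack neighbours on 1 side. Their mean over the 6 libraries had a median of 0.120 and a 95th percentile of 0.480, and 0 of them reached 0.9. Of the 141 listed sites, 133 had a mean above that 95th percentile. The highest unlisted mean was 0.855 at G3322 of 28S, where the neighbours fell to 49.1 read ends, and 89 listed sites lay above it. Unlisted A and G had medians of 0.167 and 0.183, against 0.0675 for C and 0.0592 for U, so the score itself differs between bases where no methylation is listed.

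**Figure D1:**
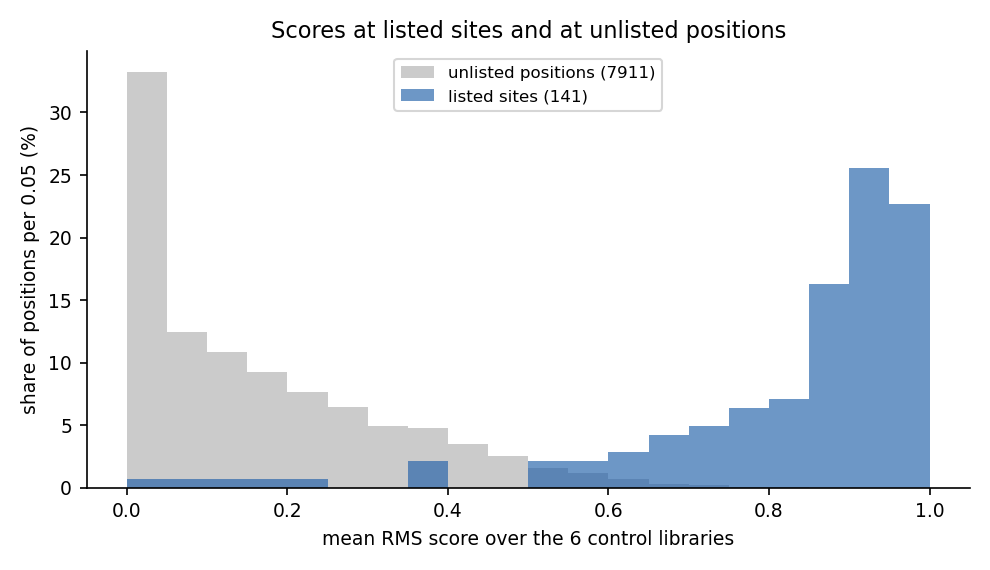
Share of positions (%) in steps of 0.05 of the mean RMS score over the 6 control libraries, for the 141 listed sites and the 7911 unlisted positions. The listed sites pile up above 0.85 with a thin tail below 0.5, and the unlisted positions, taken without the 6 at either end of each RNA, lie mostly below 0.5 and do not reach 0.9.

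Of the 41 sites of 18S rRNA, the RNA of the small ribosomal subunit, 25 were full, 13 partial and 3 low in WT, and 26, 12 and 3 in siNT. The median site mean was 0.917 in WT and 0.932 in siNT. Full sites were found along the whole molecule, from Am27 to Cm1703. The partial sites included Cm174 (0.658 ± 0.0163, SD, n = 3, in WT and 0.698 ± 0.0511 in siNT), Cm1272 (0.615 ± 0.175 and 0.626 ± 0.0795) and Gm1447 (0.60 ± 0.104 and 0.590 ± 0.0391). The last listed site, Um1804, had 0.732 ± 0.0293 in WT and 0.777 ± 0.0842 in siNT.

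28S rRNA, the large-subunit RNA with the peptidyl transferase centre, had fewer full sites in proportion. Of its 68 sites, 25 were full, 38 partial and 5 low in WT, and 34, 31 and 3 in siNT, with medians of 0.873 and 0.898. The level varied along the molecule. Among the 12 sites from Gm4196 to Cm4536, 7 were full in WT and 10 in siNT, and the medians were 0.913 and 0.926. Downstream of these, 1 of 6 sites was full in WT and 0 in siNT, with medians of 0.772 and 0.842. From Am398 to Um2043, 4 of 14 sites were full in WT and 5 in siNT, and 3 were low in both groups.

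The A loop of 28S, printed above, carries 3 listed sites. Gm4494 had 0.932 ± 0.0156 (SD, n = 3) in WT and 0.925 ± 0.0421 in siNT, and Um4498 had 0.913 ± 0.0057 and 0.913 ± 0.0044. Gm4499, whose equivalent in yeast is methylated by the stand-alone methyltransferase Spb1, scored 0.860, 0.883 and 0.661 in WT and 0.885, 0.842 and 0.770 in siNT. It lay below Um4498 in all 6 libraries, and library 3 of each group was the lowest. From read 5' ends alone Gm4499 scored between 0.928 and 0.966 in the 6 libraries, and from 3' ends between 0.435 and 0.828, so the low values lay in the 3' ends.

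Of the 21 listed sites with a listed site directly beside them, 13 were full in WT and 18 in siNT, and none was low. Of all 141 sites, 63 were full in WT and 79 in siNT. The 21 include the 8 cap-adjacent sites of U1, U2, U4 and U5, which carry another kind of score, described below. Of these 8, 6 were full in WT and 8 in siNT. The triplet Am2362, Gm2363 and Cm2364 of 28S had WT means of 0.853, 0.930 and 0.941 and siNT means of 0.928, 0.95 and 0.923. A depleted neighbour lowers the score of a site by construction, and with listed neighbours left out the control mean rose by 0.0376 at 28S-Gm4499, by 0.0445 at U6-Cm63 and by 0.0588 at 18S-Cm1440.

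**Figure D2:**
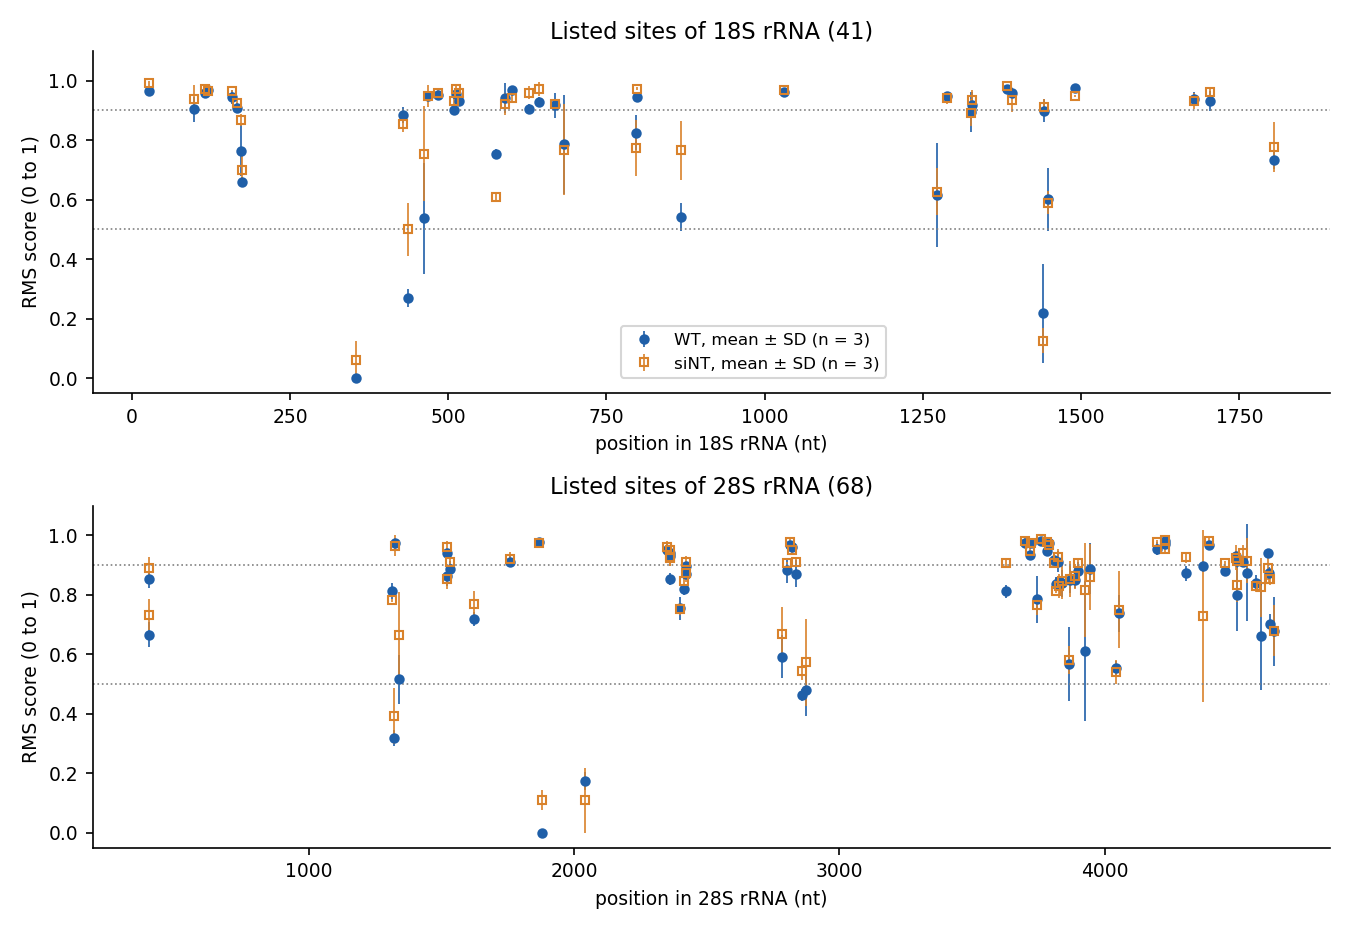
Mean RMS score ± SD (n = 3 libraries) of every listed site against its position in 18S and 28S rRNA, for WT (filled circles) and siNT (open squares), with dotted lines at 0.5 and 0.9. Most sites lie above 0.85 in both groups, the low sites are scattered, and the widest bars belong to partial sites such as 28S-Um3925 and 18S-Cm462.

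Taken over all RNAs, the level also differed between bases. Of 44 methylated A, 27 were full in WT and 32 in siNT, with medians of 0.914 and 0.939. Of 32 methylated C, 8 were full in WT and 11 in siNT, with medians of 0.837 and 0.851. G and U lay between, with 17 and 22 of 39 G sites full and 11 and 14 of 26 U sites full. The A, G and U sites include cap-adjacent sites of the snRNAs, which carry the other kind of score, and the C sites include none. In 18S rRNA 12 of 13 A sites were full in both groups, the exception being Am576. In the snRNAs 0 of 8 C sites were full in either group. From read 5' ends alone, U2-Cm40, U5-Cm45, U6-Cm60 and U6-Cm77 had control means of 0.917, 0.910, 0.912 and 0.951. The C sites U2-Cm61, U4-Cm8, U6-Cm62 and U6-Cm63 stayed below 0.9 from 5' ends as well. Shares by base were not set out from 5' ends alone. The order of the bases was different in 28S rRNA. There 10 of 21 A sites were full in WT and 12 in siNT, and 5 and 8 of 16 C sites. Of 22 G sites 8 and 10 were full, and U had the smallest full share, with 2 and 4 of 9 sites. Sites are not replicates of a base and no test was made. Unlisted C and U also scored lower than unlisted A and G, as given above, and the part of the base in the score at listed sites was not tested.

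**Figure D3:**
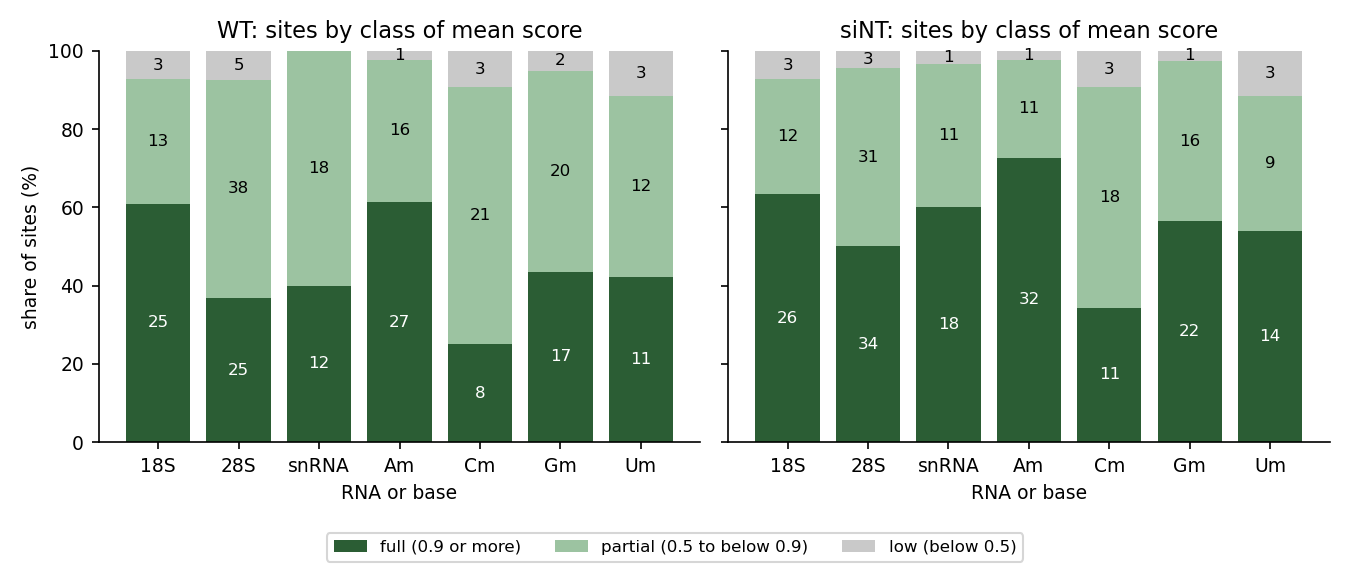
Share of listed sites (%) that were full, partial or low by mean RMS score in WT (left) and siNT (right), for 18S, 28S, the snRNAs and each base, with the number of sites printed in each bar. The A sites have the largest full share and the C sites the smallest in both groups, and every full share is larger in siNT at the limit of 0.9. The snRNA, A, G and U bars include the cap-adjacent sites with another kind of score, and the C bars do not.

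Among the 30 sites of the spliceosomal snRNAs, 12 were full and 18 partial in WT, and 18 were full, 11 partial and 1 low in siNT. U2, the snRNA of the branch site, carries 10 of them. In U2 the same 7 sites were full in WT and in siNT, among them Gm25 (0.966 ± 0.0079 in WT and 0.989 ± 0.0138 in siNT) and Am30 (0.936 ± 0.0020 and 0.952 ± 0.0101), for which the overview lists SCARNA2 and SCARNA9 as guides. The partial U2 sites were Gm19, Cm40 and Cm61. Gm19 scored 0.698, 0.705 and 0.694 in WT and 0.737, 0.720 and 0.865 in siNT, all siNT values above all WT values. Cm40, just downstream of the branch-site pairing bases and with its guide listed as unknown, scored 0.753, 0.820 and 0.715 in WT and 0.687, 0.558 and 0.658 in siNT, all siNT values below. From read 5' ends alone Cm40 scored 0.857 to 0.938 in the 6 libraries and from 3' ends 0 to 0.511, so that the 2 kinds of ends put it in different classes.

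U6, the catalytic snRNA of the spliceosome, was mainly partial by the score from both ends. In WT 1 of its 8 sites was full and in siNT 3, and the medians were 0.841 and 0.868. Am47 was its highest, with 0.901 ± 0.0521 in WT and 0.936 ± 0.0300 in siNT. The adjacent sites followed. Am53 had 0.860 ± 0.0456 and 0.924 ± 0.0341, and Gm54 scored 0.821, 0.836 and 0.882 in WT and 0.920, 0.908 and 0.975 in siNT. The groups did not overlap at Gm54 and overlapped at Am53. The lowest U6 site was Cm63 in WT (0.648 ± 0.116, against 0.856 ± 0.0965 in siNT) and Am70 in siNT (0.691 ± 0.151, against 0.772 ± 0.0546 in WT). From read 5' ends alone, Am47, Gm54, Cm60 and Cm77 had control means of 0.952, 0.919, 0.912 and 0.951. Am53, Cm62, Cm63 and Am70 stayed below 0.9 from 5' ends.

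U5 had 2 full sites of 5 in WT and 3 in siNT. In its exon-binding loop, Gm37 scored 0.875, 0.880 and 0.939 in WT and 0.961, 0.958 and 0.946 in siNT, Um41 had 0.655 ± 0.0888 and 0.765 ± 0.149, and Cm45 had 0.791 ± 0.0945 and 0.830 ± 0.115. Um41 and Cm45 were therefore partial in both groups by this score. From read 5' ends alone the control mean of Cm45 was 0.910 and from 3' ends 0.680, which are in different classes. Those of Um41 were 0.662 and 0.788, both partial. In U1, whose 5' end pairs with the 5' splice site, both cap-adjacent sites were full in both groups, and Am70 scored 0.808, 0.725 and 0.818 in WT and 0.966, 0.631 and 1 in siNT.

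The first 2 nucleotides of U1, U2, U4 and U5, next to the cap, have no neighbours upstream, and their values are the deposited recalculated scores, of which 36 of 48 lay within 0.001 of the value that downstream neighbours and 5' ends give (largest difference 0.0359). Their medians were 0.965 in WT and 0.959 in siNT. The 22 other snRNA sites, scored against neighbours on both sides, had medians of 0.841 and 0.873, and the 2 kinds of score are not compared. Of the 8 cap-adjacent sites 6 were full in WT and 8 in siNT. The exceptions in WT were U4-Am1, which scored 0.90, 0.839 and 0.774, and U4-Gm2, which scored 0.929, 0.679 and 0.819. In siNT all 3 libraries had 0 read ends at U4-Am1 and a score of 1, but only 2.0 to 3.7 read ends per neighbouring position. A count of 0 over the 3 siNT libraries allows a score down to 0.635 there, and down to 0.796 at U4-Am65, which also scored 1 in each siNT library. Such limits cover counting error only, because no molecular identifiers were counted and reads may repeat a molecule.

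**Figure D4:**
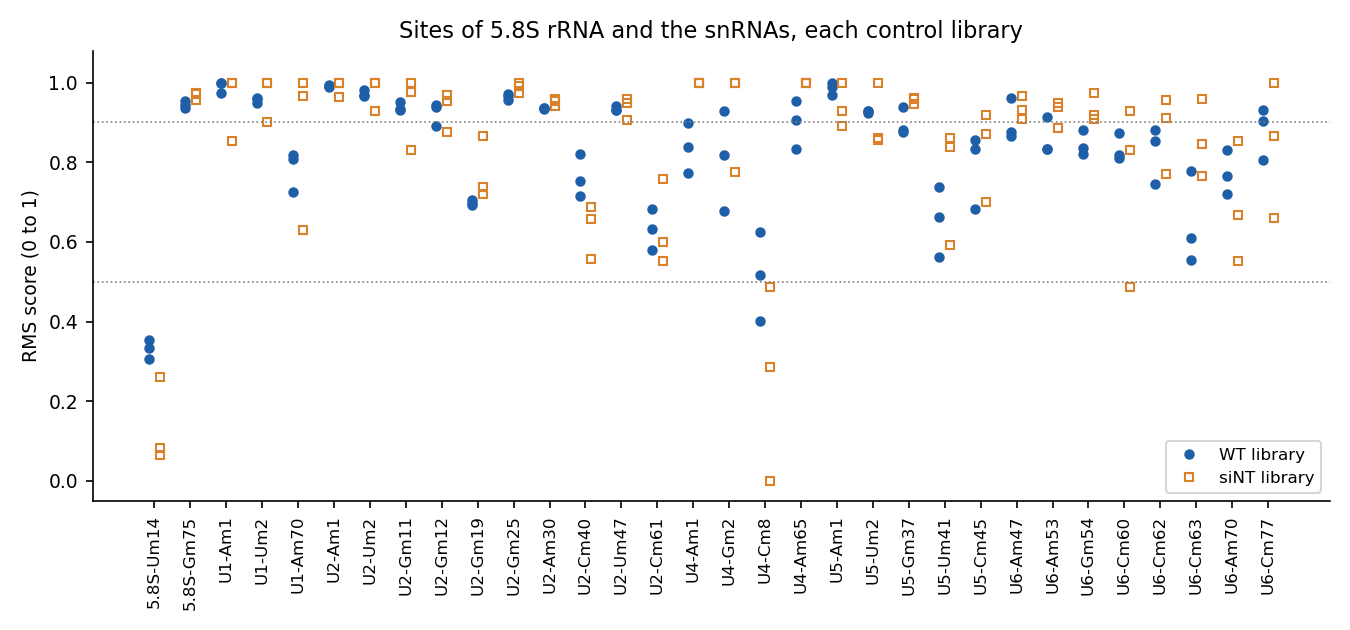
RMS score of each control library at the 2 sites of 5.8S rRNA and the 30 snRNA sites, WT as filled circles and siNT as open squares, with dotted lines at 0.5 and 0.9. Most cap-adjacent and U2 values lie above 0.9, sites such as U6-Cm60 and U1-Am70 spread widely in siNT, and 5.8S-Um14 and U4-Cm8 are the low sites.

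The low sites were not alike. 18S-Um354 and 28S-Cm1880 scored 0 in all 3 WT libraries, meaning that they had at least as many read ends as their neighbours. In siNT libraries 1 to 3, Um354 scored 0.130, 0.0538 and 0, and Cm1880 scored 0.0724, 0.128 and 0.132. Over the 6 libraries, 52.6% of the unlisted U of 18S scored as high as Um354 or higher, and 54.5% of the unlisted C of 28S as high as Cm1880 or higher. By their mean score from both ends over the 6 libraries, these 2 listed sites did not stand out from the background. From read 5' ends alone Cm1880 scored 0.0424 to 0.344 in the 6 libraries and Um354 0 to 0.229, and no background was set out for 5' ends. The WT libraries had 1594 to 3543 read ends per neighbouring position at these 2 sites.

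28S-Um2043 scored 0.186, 0.197 and 0.139 in WT and 0.0288, 0.232 and 0.0670 in siNT, and 33.1% of unlisted U of 28S reached its mean. 18S-Cm1440 scored 0.0268, 0.329 and 0.299 in WT and 0.0779, 0.149 and 0.151 in siNT, and 24.0% of unlisted C of 18S reached its mean. With 2 neighbours per side the control mean was 0.0606 at Um2043 and 0.0401 at Cm1440, in place of 0.142 and 0.172.

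5.8S-Um14 scored 0.334, 0.305 and 0.354 in WT and 0.0642, 0.260 and 0.0827 in siNT, without overlap. The other site of 5.8S, Gm75, was full in both groups (0.945 ± 0.0092 and 0.967 ± 0.0093). 18S-Gm436 scored 0.274, 0.295 and 0.237 in WT and 0.530, 0.570 and 0.40 in siNT, also without overlap and in the opposite direction to Um14. 28S-Am1323 was low in every library, with 0.349, 0.302 and 0.303 in WT and 0.497, 0.362 and 0.317 in siNT. From 5' ends alone its mean was 0.227 and from 3' ends alone 0.588, which is in the partial range. With 2 neighbours per side in place of 6, the control mean of Um14 was 0.0954 in place of 0.233. Of unlisted positions of the same RNA and base, 16.1% reached the mean of Um14, 16.2% that of Am1323 and 16.1% that of Gm436. The adjusted p of siNT minus WT in the limma fit was 0.213 for Um14, 0.0886 for Gm436 and 0.565 for Am1323.

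U4-Cm8, listed with the guide SCARNA17, scored 0.401, 0.517 and 0.625 in WT and 0.287, 0.487 and 0 in siNT. Its neighbours had 16.6 to 40.1 read ends per position in WT and 3.9 to 5.6 in siNT, and the siNT scores rest on 4, 2 and 5 read ends at the site. 28S-Cm2860 and 28S-Gm2875 lay on the limit of the low class, with 0.465 ± 0.0194 and 0.479 ± 0.0847 in WT and 0.546 ± 0.0320 and 0.573 ± 0.146 in siNT. Of unlisted positions of the same RNA and base, 6.25% reached the mean of U4-Cm8 (28.1% by siNT alone), 2.45% that of Cm2860 and 6.23% that of Gm2875.

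The spread between replicates was small at full sites and larger at partial ones. The median SD of full sites was 0.0115 in WT and 0.0172 in siNT, and that of partial sites 0.0459 and 0.0602. Low sites had a median SD of 0.0267 in WT (9 sites) and 0.0914 in siNT (8 sites), the largest of the classes in siNT. The largest SD in WT was that of 28S-Um3925, which scored 0.611, 0.377 and 0.847, and in siNT that of 28S-Gm4370, which scored 0.397, 0.924 and 0.868. Next in WT came 18S-Cm462, 28S-Am4590, 18S-Cm1272 and 18S-Gm683, and next in siNT U4-Cm8, U6-Cm60, U1-Am70 and U6-Cm77. U6-Cm60 scored 0.487 in siNT 1 and 0.928 and 0.831 in siNT 2 and 3. The U6, U4 and U1 sites had at most 54.2 read ends per neighbouring position in a siNT library, whereas 28S-Um3925 and 28S-Gm4370 had at least 374.

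Read 5' ends and read 3' ends, scored apart, told where much of this spread lay. At the 128 sites with both scores, the median of the control mean was 0.927 from 5' ends, 0.878 from 3' ends and 0.894 from both. The median SD of WT was 0.0183 from 5' ends and 0.0424 from 3' ends, and that of siNT 0.0227 and 0.0450. The 2 scores lay within 0.1 of each other at 98 sites. At 13 sites the 5' score was higher by more than 0.2, and at 3 sites (28S-Am1323, Um2043 and Gm4042) the 3' score was.

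The other 13 sites, near the 5' end of their RNA, had no score from 3' ends. Several of the most variable sites were among those with a higher 5' score. 28S-Um3925 ranged from 0.801 to 0.942 over the 6 libraries by 5' ends and from 0.0333 to 0.893 by 3' ends. 18S-Cm462 ranged from 0.898 to 1 by 5' ends and from 0.229 to 0.871 by 3' ends, and 18S-Gm683 from 0.927 to 1 and from 0.570 to 0.921. By 5' ends, then, Cm462 and Gm683 were at or near the full class in every control library although the score from both ends called them partial. With the deposited recalculated values wherever given, the control means were 0.812 at Cm462, 0.934 at Gm683, 0.840 at 28S-Um3925 and 0.905 at 28S-Gm4370, in place of 0.645, 0.776, 0.714 and 0.813. 28S-Um2043 went the other way, with 0 in all 6 libraries by 5' ends and 0.0773 to 0.630 by 3' ends.

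Libraries with the same index sequence could be compared at such sites. The difference between replicates 3 and 2 in WT and the same difference in siNT correlated with an r of 0.433 across the 141 sites, which share their libraries and are not independent replicates, and had the same direction at 79 of them. At 11 sites both differences exceeded 0.1, and they had the same direction at 9 of them. 28S-Um3925 was higher in replicate 3 by 0.470 in WT and by 0.288 in siNT, and 18S-Gm683 changed by -0.304 in WT and by -0.305 in siNT. The exceptions were U2-Cm40 and U4-Cm8. Whether the index, its run or the RNA moved these values was not tested.

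The order of the sites was similar in siNT and WT by group means and less so between single libraries. The group means correlated with a Pearson r of 0.935 and a Spearman rho of 0.899 across the 141 sites, as a description of the 2 groups. At the 133 sites with a mean of 0.5 or more over the 6 libraries, r was 0.877 and rho 0.880. Between libraries, r was 0.902 to 0.931 within WT, 0.847 to 0.884 within siNT and 0.825 to 0.928 between a WT and a siNT library. The Spearman rho was 0.855 to 0.908 within WT, 0.741 to 0.790 within siNT and 0.706 to 0.837 between a WT and a siNT library. The same class was found in both groups at 120 of 141 sites, of which 62 were full, 51 partial and 7 low. Of the rest, 17 were partial in WT and full in siNT, 1 the reverse (28S-Gm4618), 2 were low in WT and partial in siNT (28S-Cm2860 and Gm2875) and 1 was partial in WT and low in siNT (U4-Cm8). Of the 17, 13 had a WT mean of 0.85 or more and so crossed the limit from close by. With limits of 0.8 and 0.4 in place of 0.9 and 0.5, 101 sites were full in WT and 104 in siNT, against 63 and 79.

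The median score of a library was 0.895, 0.892 and 0.889 in WT and 0.910, 0.911 and 0.908 in siNT. All 3 siNT libraries lay above all 3 WT libraries, by 0.0173 between the means (0.892 ± 0.0031 and 0.910 ± 0.0016). A two-sided exact permutation test over the libraries gave p = 0.1, the smallest value that 3 against 3 allows. The median of the site differences, siNT minus WT, was 0.0130, with 92 sites higher and 49 lower. After each library was shifted by its own median deviation, 66 were higher and 75 lower and the median was -0.00115, which such a shift brings about by its construction. With all libraries thinned to the same total, the median was 0.0110. The difference was under 0.05 in size at 99 sites and under 0.1 at 122.

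The 95% limma interval of the difference, not adjusted over sites, lay within -0.1 to 0.1 at 75 of the 141 sites, and reached outside at 66. By RNA, 68 of 111 rRNA sites and 7 of 30 snRNA sites lay within. For the other sites the libraries did not bound the difference to 0.1, and a p that misses the threshold does not show that the groups were alike.

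In the limma fit on the 6 libraries, 2 of 141 sites (1.42%) passed an adjusted p of 0.05, 1 in each direction (0.709% each), and 17 had an unadjusted p under 0.05. 18S-Am576, the partial site among the A of 18S, scored 0.735, 0.759 and 0.766 in WT and 0.619, 0.605 and 0.601 in siNT. All siNT libraries lay below all WT libraries, by 0.145 ± 0.0136 (SE), with an adjusted p of 0.0111. 28S-Gm4623 scored 0.666, 0.717 and 0.726 in WT and 0.859, 0.833 and 0.869 in siNT. Here all siNT libraries lay above, by 0.151 ± 0.0211 (SE), with an adjusted p of 0.0422. The nearby 28S-Gm4618 and Um4620 were 0.0506 and 0.0195 lower in siNT by their means, and neither passed.

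Around Am576 the neighbours had 2013 to 4494 read ends per position in WT and 373 to 431 in siNT, and around Gm4623 1800 to 4115 and 489 to 609. With every library thinned to 1705278 read ends, Am576 kept its call with a difference of -0.133 (limma adjusted p 0.0411), and Gm4623 lost its call (0.187) with a difference of 0.148, close to that without thinning.

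Neither call was firm. With edgeR's quasi-likelihood test on the read ends, 0 sites passed in either direction and 20 had an unadjusted p under 0.05, and in that test Am576 had an adjusted p of 0.199 and Gm4623 of 0.162. The call of Am576 was lost without WT 2 (limma adjusted p 0.114) or WT 3 (0.0637), and by read 3' ends alone (0.772). The call of Gm4623 was lost whenever 1 of the 6 libraries was left out (limma adjusted p from 0.0542 to 0.176). Other sites passed when a siNT library was left out, namely 28S-Cm1880 without siNT 1 (limma adjusted p 0.0270), 5.8S-Um14 without siNT 2 (0.0168) and 18S-Gm436 and Gm867 without siNT 3 (0.0342 and 0.0366). In a fit over all 12 libraries, neither Am576 nor Gm4623 passed (limma adjusted p of 0.730 and 0.144), nor did they with the library index as a block in that fit (0.779 and 0.339).

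The 3 siNT scores lay wholly to 1 side of the 3 WT scores at 31 of 141 sites (22%), 25 with siNT higher (17.7%) and 6 with siNT lower (4.26%). At unlisted positions this share was 8.68%, with 3.45% higher and 5.23% lower, and at those with at least 100 read ends per neighbouring position in every control library it was 7.97%, with 2.88% higher and 5.09% lower. Of the unlisted positions, 33.3% had a mean below 0.05 over the 6 libraries. Scores of 0 in both groups leave no gap between them, so the shares at listed and unlisted positions are not like for like. The 25 sites with siNT higher were drawn from 18S, 28S, 5.8S and the snRNAs. The largest of these differences were at 18S-Gm436 (0.231, limma adjusted p 0.0886), 18S-Gm867 (0.225, 0.164), U4-Am1 (0.162, 0.0886), 28S-Gm4623, 28S-Cm1880 (0.111, 0.0609) and 18S-Um172 (0.104, 0.407). 18S-Gm867 scored 0.487, 0.567 and 0.570 in WT and 0.836, 0.808 and 0.653 in siNT. 28S-Gm3627 scored 0.826, 0.824 and 0.787 in WT and 0.910, 0.897 and 0.920 in siNT, with an adjusted p of 0.0609 in the limma fit. The 6 with siNT lower were 18S-Am576, Gm601 and Gm1490, 28S-Gm4618, 5.8S-Um14 and U2-Cm40.

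**Figure D5:**
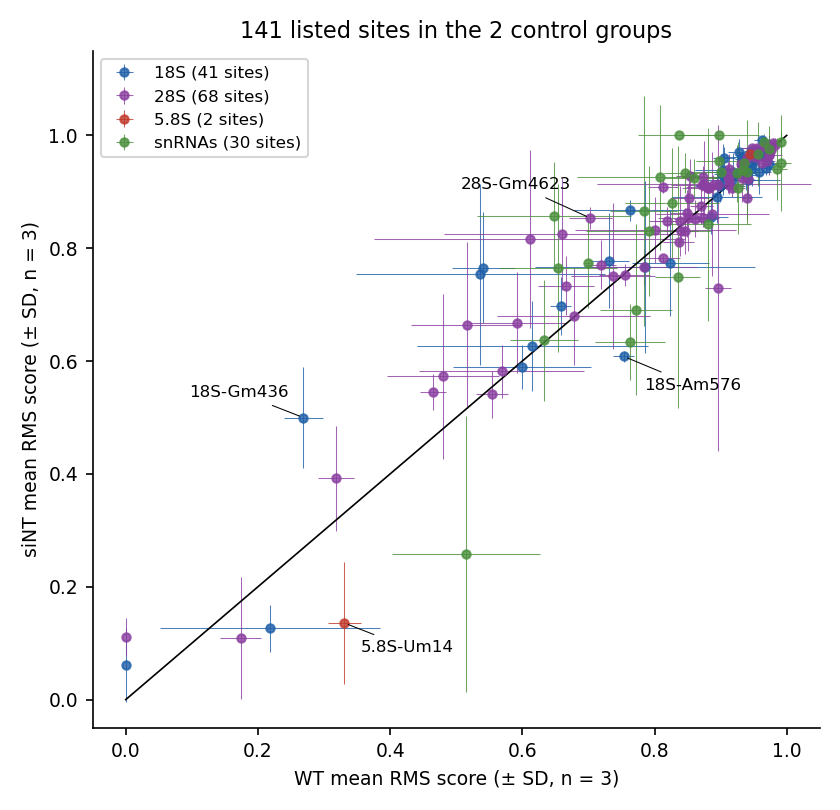
Mean RMS score of each of the 141 listed sites in siNT against WT, with SD bars (n = 3 libraries each) and the line of equality, coloured by RNA. The points follow the line with r = 0.935, and the 2 sites past the threshold (18S-Am576 and 28S-Gm4623) lie on opposite sides of it. Low sites such as 18S-Gm436 and partial sites such as 18S-Gm867 lie well off the line.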

How the data were processed

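Per the labels' protocols, alkaline fragments of total RNA, 20 to 40 nt long, received linkers and were sequenced on the Ion Proton. Tools named in the submitters' processing notes are cutadapt 2.0 and Bowtie2 2.3.4.1, with the build hg38, and their roles are not given in the sources used here. Per the file headers, the deposited tables give counts of read 5' and 3' ends at each position and the authors' score, a fraction, for each replicate. Computed from the deposited counts, 1 minus the read ends at the site over the weighted mean of 6 neighbours per side, set to 0 where negative, equalled the deposited score to within 5.1e-10 in all 12 libraries at 8044 of 8164 positions. For the cap-adjacent sites of U1, U2, U4 and U5 the deposited recalculated fraction was used.

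The model was limma 3.58.1 (R 4.3.3) on untransformed scores of the 6 control libraries, with a mean for WT and another for siNT. Tests were two-sided, with Benjamini-Hochberg adjustment across the 141 sites and a threshold of 0.05, and the script was first tested on simulated data. No low values were filtered. Each site had 1 variance, pooled over both groups and then moderated by limma. A group with no spread, such as WT at 28S-Cm1880, entered it as 0. Alternatives were other samples, blocks, scales, depths, read ends, neighbours, filters and edgeR 4.0.16. Members, lists, class limits and tests were chosen with earlier results of these data known. Sites were named where they passed the threshold without overlap, were low in a group, were the extremes in level or spread, or served as examples of an RNA, base or stretch. Positions count from 1 in the sequences of the tables, and no genome coordinates were used here. The sequence around the U6 sites is not reported here.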

Additional observations from a re-analysis of the deposited data

Results flagged for a closer look

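The tables also hold U3 and U8, box C/D small nucleolar RNAs that take part in rRNA processing, and for which the overview lists no site. The deposited recalculated scores at their first positions were high. U3-Am1 scored 0.988 as the mean of the 6 control libraries (0.928, 1 and 1 in WT and 1 in each siNT library), U8-Am1 scored 0.991 and U8-Um2 scored 0.959. The other positions with 6 neighbours on each side carry the score against both sides, and the 2 kinds of score are not compared. The 205 of U3 had a median of 0.167 and a highest mean of 0.746. The 124 of U8 had a median of 0.198 and a highest mean of 0.695. The recalculated score of U3-Am2 was lower than that of U3-Am1, with 0.714. The values at U3-Am1, U8-Am1 and U8-Um2 drew attention because they come from RNAs outside the list. They rest on few reads, with 3.3 to 39.9 read ends per downstream position at U3-Am1 and 0.733 to 54.6 at U8-Am1.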

How the results depend on the processing

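A replicate block in the fit left 0 lower and 0 higher calls in siNT (19 sites with an unadjusted p under 0.05, and an adjusted p of 0.154 for Am576 and for Gm4623 in limma). Same-numbered libraries correlated in their deviations at -0.197, 0.235 and 0.325, so the numbers were not taken to pair the samples. Pairs 2 and 3 share an index, and WT 1 was not most like siNT 1. Counts were also 0 lower and 0 higher with all 4 groups in the fit (10 unadjusted), the library index as a block (14), read 3' ends alone (7) and edgeR (20). On the logit scale 0 were lower and 3 higher, namely 28S-Cm1880, U4-Am1 and U4-Am65, whose scores sit at a bound in a group. With 2 neighbours 2 were lower (Am576 and 5.8S-Um14) and 0 higher. With thinned libraries, or listed neighbours left out, 0 were higher (17 unadjusted in each), with read 5' ends alone 4 (18S-Um172 and Gm436, 28S-Cm2860 and Gm3627), and with a neighbour mean of at least 100 read ends 3. Without each library in turn, 0 to 2 were lower and 0 to 2 higher. The median difference was -0.00115 with centred libraries, 0.00395 with 3' ends alone and 0.0114 to 0.0181 without each library. With class limits of 0.8 and 0.4, 101 sites were full in WT and 104 in siNT. By 3' ends alone 18S-Um627 turned to -0.0110, 28S-Cm2860 to -0.102 and 28S-Gm3627 to -0.00508 (siNT minus WT), and the cause was not tested. Of 332 single-site comparisons, 292 kept direction and side of the threshold. The number of sites of the same class stayed between 93, with 107 sites kept, and 128, and that of intervals within 0.1 between 52 and 79. Logit and edgeR give no difference on the score scale. Keeping negative scores was chosen after seeing the data and left both counts at 1. Depth limits snRNA sites in siNT most, U4 above all.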

Other observations

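The overview pairs snRNA sites with guide RNAs, which allows the levels to be set out by guide. Away from the cap, 15 snRNA sites have a listed guide, and 4 of them were full in WT and 6 in siNT, with medians of 0.835 and 0.866. For 7 sites the guide is listed as unknown, and 2 of these were full in WT and 4 in siNT, with medians of 0.846 and 0.933. Sites listed with the same guide differed in level. SCARNA9 is listed for U2-Gm19, partial in both groups (0.699 ± 0.0057 and 0.774 ± 0.0794), and for U2-Am30, full in both, and SCARNA5 is listed for U4-Am65 and, with another guide, for U5-Um41, whose means over the 6 libraries were 0.949 and 0.710.

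Among unlisted positions of the tables with 6 neighbours on each side, 0 scored 0.75 or more in all 6 control libraries and 1 scored 0.7 or more, namely G3322 of 28S with 0.951, 0.917 and 0.785 in WT and 0.711, 0.858 and 0.910 in siNT. The next highest were C628 of 28S, with a mean of 0.820, and C571 of 28S, with 0.808, where the neighbours fell to 19.9 and 22.0 read ends per position in a library.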
